A study of Mus musculus with 10 samples.

Results

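The 10 genes described here encode proteins of mucin-type O-glycosylation in the mouse colon, the stepwise building of sugar chains on mucins. They were chosen by symbol for their role in the pathway, with earlier results of these data known. They are Galnt3, C1galt1, C1galt1c1, B3gnt6, Gcnt1, Gcnt3, B3gnt7, Fut2, B4galnt2 and St3gal4. All encode enzymes except C1galt1c1, which encodes a chaperone of the C1galt1 enzyme and is counted below with the enzyme genes. All 10 were in the expression table of 24525 genes, and all 10 were among the 13016 that averaged 1 FPKM or more and were tested. FPKM, which counts fragments relative to the length of the transcript and the size of the library, is a level per length, so levels can be set side by side between genes.

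The libraries were RNA sequencing of colon tissue from male C57BL/6 mice (C57BL/6N in the growth protocol) in a model of colitis-associated colorectal cancer. Mice of 7 weeks and 18 to 20 g received AOM (azoxymethane, a mutagen) once into the peritoneum at 12.5 mg/kg. From a week later, 3 cycles of DSS (dextran sulfate sodium, which injures the colonic epithelium) followed, in which 2% DSS in the drinking water for 5 days alternated with tap water for 16 days. Tissue was taken 10 weeks after AOM. The 5 tumour and the 5 adjacent samples both carry this treatment: of the 15 mice, 12 were treated and 3 untreated, and no library was labelled as from an untreated mouse, so the adjacent tissue is not untreated colon. The titles number each group 1 to 5, but the source label names the same mouse throughout, so which libraries share an animal is not settled and p-values measure only the spread between these samples.

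In mucin-type O-glycosylation a GALNT enzyme first attaches N-acetylgalactosamine to a serine or threonine. The core 1 synthase then adds galactose or the core 3 synthase adds N-acetylglucosamine, branching enzymes turn these into core 2 and core 4, and the chains are extended and capped with fucose, sialic acid or further N-acetylgalactosamine. In the colon these chains make up most of the mass of the secreted mucin Muc2. Mice without the core 1 synthase in the gut epithelium develop colitis, and mice without the core 3 synthase are more prone to DSS colitis and to AOM and DSS tumours.

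In the tumours 9 of the 10 genes fell and none rose (limma, Benjamini-Hochberg adjusted p under 0.05 over all tested genes), and Galnt3 did not pass. With the mean of 12 epithelial markers subtracted, 4 of the 9 still fell, where 5.18% of tested genes were lower and 84.3% higher. In that setting the sign of C1galt1c1 turned and Galnt3 was higher (0.86; limma adjusted p = 6.17e-05). On the scale as deposited the background was high: 76.5% of the tested genes passed, 57.2% higher and 19.3% lower in tumours. The median log2 change of the 10 genes was -1.64, against 0.35 over all tested genes. Of the genes that passed, 74.8% were higher, and 50.9% were higher once each library's median was subtracted (33.3% of tested genes then lower, 34.5% higher). On that scale the same 9 genes fell, with log2 changes of -0.91 (C1galt1c1) to -3.87 (B3gnt7). In bulk tissue, fewer cells of a type and less RNA per cell cannot be told apart.

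The fall was deepest for B3gnt7 and St3gal4, which extend and sialylate the finished cores, and shallowest for the core 1 pair C1galt1 and C1galt1c1. Among all tested genes, 0.438% had a log2 change as low as that of B3gnt7 and 0.607% as low as that of St3gal4. The share was 1.74% for Gcnt3, 2.15% for B3gnt6, 2.84% for B4galnt2 and 3.77% for Gcnt1. It was 6.76% for Fut2, 8.25% for C1galt1, 12.3% for C1galt1c1 and 30.5% for Galnt3. Lower by at least 1 on the log2 scale and past the test were 7 of the 10, against 7.09% of tested genes. In 5 of the 10 every tumour lay below every adjacent sample (C1galt1, C1galt1c1, Gcnt1, B3gnt7 and St3gal4), against 14.3% of tested genes, while all tumours lay above all adjacent samples in none of the 10 and in 46.5% of tested genes.

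**Figure D1:**
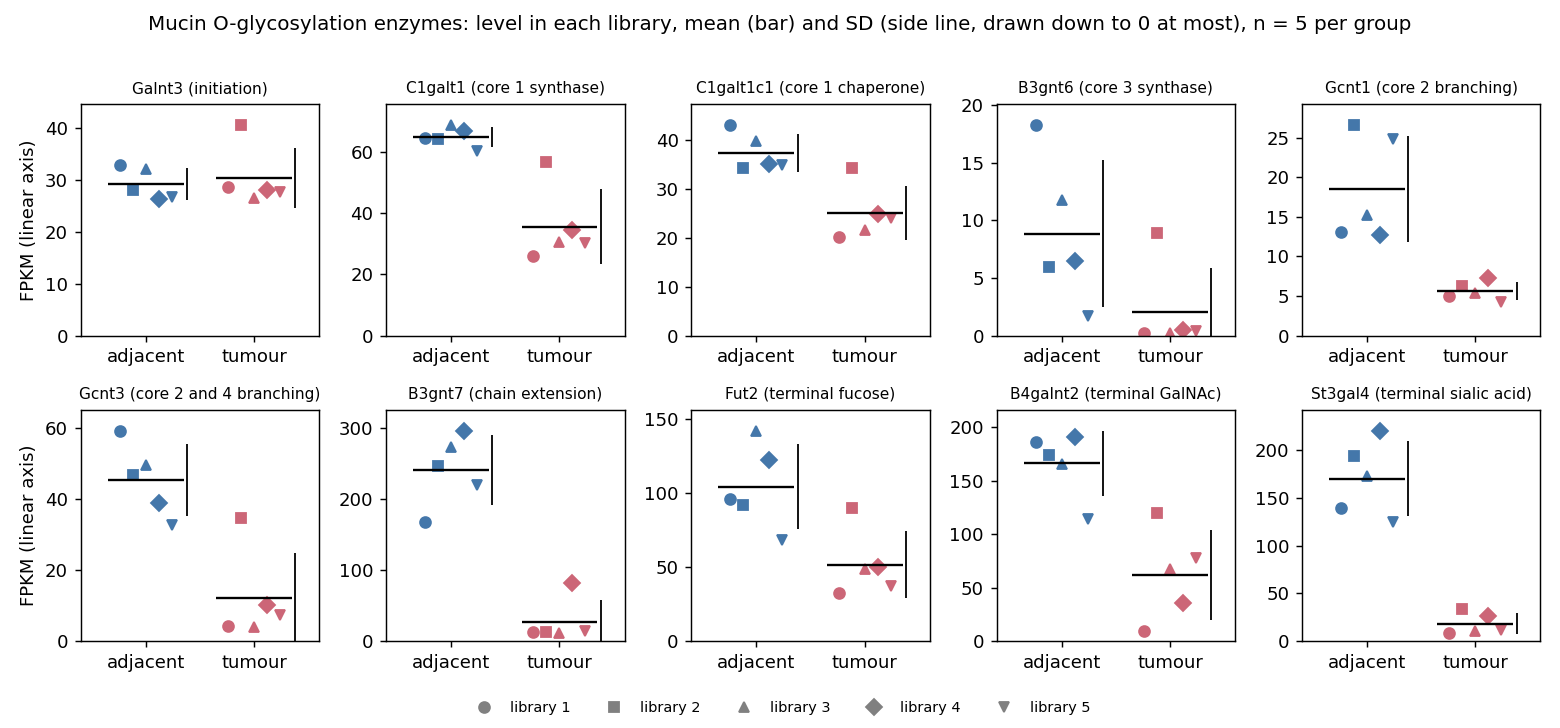
Level of each of the 10 genes in each library in FPKM (linear axes starting at 0), with adjacent samples in blue and tumours in red, a symbol for each library number, the group mean as a bar and the SD (n = 5) as a side line. Tumour 2 lies within or above the adjacent range for Galnt3, B3gnt6, Gcnt3, Fut2 and B4galnt2, while all 5 tumours lie below all adjacent samples for B3gnt7 and St3gal4.

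Galnt3, on chromosome 2 (66082766 to 66124994, minus strand; this and the other gene positions are GENCODE M21 on GRCm38), encodes a GALNT that starts the chain. Its level in adjacent samples 1 to 5 was 32.8, 28.0, 32.1, 26.4 and 26.6 FPKM, and in tumours 1 to 5 it was 28.7, 40.5, 26.4, 28.1 and 27.6 FPKM. The groups overlapped, and tumour 2 was above every other library. The means were 29.2 ± 3.05 and 30.2 ± 5.78 FPKM (SD, n = 5 each; for each gene the adjacent mean is given first), a log2 change on the log2(FPKM + 1) scale of 0.04 (SE 0.12; 95% interval -0.22 to 0.30; limma adjusted p = 0.772). The sign turned to -0.29 with medians subtracted (adjusted p = 0.0579) and to -0.0676 without tumour 2.

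C1galt1, on chromosome 6 (7844842 to 7875687, plus strand), encodes the core 1 synthase. The level in adjacent samples 1 to 5 was 64.6, 64.2, 68.7, 66.8 and 60.2 FPKM, and tumours 1 to 5 had 26.1, 56.9, 30.4, 34.4 and 30.3 FPKM. The adjacent samples were close together, all tumours lay below them, and tumour 2 came nearest. C1galt1 fell from 64.9 ± 3.20 to 35.6 ± 12.2 FPKM (SD, n = 5 each), or -0.90 on the log2 scale (SE 0.17; adjusted p = 0.000711, limma).

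C1galt1c1, on chromosome X (38630785 to 38635087, minus strand), encodes Cosmc, the chaperone that the core 1 synthase needs in order to fold. Levels of 43.1, 34.33, 39.8, 35.1 and 34.9 FPKM were measured in adjacent samples 1 to 5, and tumours 1 to 5 had 20.1, 34.31, 21.6, 24.99 and 24.2 FPKM. The groups touched without overlapping, since tumour 2 was level with adjacent sample 2 to within 0.1 FPKM, and the other tumours were lower. The gene fell from 37.4 ± 3.85 to 25.03 ± 5.54 FPKM (SD, n = 5 each), or -0.58 on the log2 scale (SE 0.13; adjusted p = 0.00209, limma).

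B3gnt6, on chromosome 7 (98192417 to 98199481, minus strand), encodes the core 3 synthase and had the lowest mean of the 10 in both groups. Adjacent samples 1 to 5 had 18.2, 5.91, 11.8, 6.49 and 1.74 FPKM, and tumours 1 to 5 had 0.24, 8.87, 0.23, 0.48 and 0.38 FPKM. Tumour 2 was above 3 of the adjacent samples, while the other tumours were all under 0.5 FPKM and below every adjacent sample. B3gnt6 was uneven in the adjacent samples too, where its SD was 71.9% of its mean, and in tumours its highest value was 38.6 times its lowest. It fell from 8.83 ± 6.36 to 2.04 ± 3.82 FPKM (SD, n = 5 each), or -2.03 on the log2 scale (SE 0.66; adjusted p = 0.0171, limma). The size for this low gene depended on the pseudocount, at -3.16 with 0.1 and -0.98 with 5, and was -2.66 without tumours 2 and 4.

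Gcnt1, on chromosome 19 (17326141 to 17372844, minus strand), encodes the enzyme known for branching core 1 into core 2. The level in adjacent samples 1 to 5 was 13.0, 26.6, 15.3, 12.7 and 24.9 FPKM, and tumours 1 to 5 had 4.99, 6.22, 5.45, 7.23 and 4.24 FPKM. All tumours lay below all adjacent samples, and here tumour 2 was among the other tumours. Gcnt1 fell from 18.5 ± 6.70 to 5.63 ± 1.15 FPKM (SD, n = 5 each), or -1.51 on the log2 scale (SE 0.22; adjusted p = 0.00013, limma).

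Gcnt3, on chromosome 9 (70031496 to 70038088, minus strand), encodes the mucin-type branching enzyme, which makes both core 2 and core 4. Levels of 59.3, 46.9, 49.7, 39.1 and 32.8 FPKM were measured in adjacent samples 1 to 5, and tumours 1 to 5 had 4.22, 34.7, 4.08, 10.2 and 7.49 FPKM. Tumour 2 was above adjacent sample 5, and the other tumours were all below the adjacent range. Gcnt3 fell from 45.6 ± 10.1 to 12.1 ± 12.9 FPKM (SD, n = 5 each), or -2.22 on the log2 scale (SE 0.47; adjusted p = 0.00155, limma), and -2.91 without tumours 2 and 4.

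B3gnt7, on chromosome 1 (86302832 to 86307305, plus strand), encodes an N-acetylglucosaminyltransferase that extends lactosamine chains, including the backbone of keratan sulfate. Adjacent samples 1 to 5 had 168, 247, 273, 296 and 219.6 FPKM, and tumours 1 to 5 had 12.8, 13.6, 12.1, 82.5 and 14.9 FPKM. All tumours lay below all adjacent samples, and here tumour 4, not tumour 2, stood above the others. B3gnt7 fell from 241 ± 49.7 to 27.2 ± 30.9 FPKM (SD, n = 5 each), so the adjacent mean was 8.86 times the tumour mean. The log2 change was -3.54 (SE 0.47; 95% interval -4.58 to -2.50; limma adjusted p = 8.36e-05), and -4.05 without tumour 4.

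Fut2, on chromosome 7 (45648591 to 45666394, minus strand), encodes the secretor fucosyltransferase, which caps chains with the H antigen. The level in adjacent samples 1 to 5 was 96.5, 92.1, 142, 123 and 68.3 FPKM, and tumours 1 to 5 had 32.8, 89.9, 48.9, 49.9 and 37.2 FPKM. Tumour 2 lay inside the adjacent range and the other tumours below it. Fut2 fell from 104 ± 28.7 to 51.7 ± 22.6 FPKM (SD, n = 5 each), or -1.05 on the log2 scale (SE 0.27; adjusted p = 0.00518, limma).

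B4galnt2, on chromosome 11 (95865943 to 95914891, minus strand), encodes the enzyme that adds N-acetylgalactosamine to sialylated chains to give the Sda antigen. Levels of 186, 174, 166, 191 and 115 FPKM were measured in adjacent samples 1 to 5, and tumours 1 to 5 had 9.90, 119.5, 67.9, 35.6 and 77.7 FPKM. Tumour 2 lay just above adjacent sample 5, the lowest of its group, and the tumours were spread widely, with tumour 1 far below the rest. B4galnt2 fell from 166 ± 30.5 to 62.1 ± 41.8 FPKM (SD, n = 5 each), or -1.77 on the log2 scale (SE 0.55; adjusted p = 0.0127, limma).

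St3gal4, on chromosome 9 (35046576 to 35119268, minus strand), encodes a sialyltransferase that adds sialic acid to galactose in the alpha-2,3 linkage. Adjacent samples 1 to 5 had 139, 194, 173, 219.9 and 125 FPKM, and tumours 1 to 5 had 8.55, 34.1, 11.2, 25.9 and 11.7 FPKM. All tumours lay far below all adjacent samples, with tumours 2 and 4 the highest of their group. St3gal4 fell from 170.1 ± 39.1 to 18.3 ± 11.1 FPKM (SD, n = 5 each), the adjacent mean being 9.30 times the tumour mean. The log2 change was -3.30 (SE 0.35; 95% interval -4.08 to -2.53; limma adjusted p = 2.89e-05).

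Exons of 3 of the genes overlap a gene on the opposite strand, and the sources used here do not say whether reads were counted by strand, so reads from the overlap could not be told apart. The overlap covers 12.6% of the exonic bases of B3gnt7 (Gm28626), 15.3% of those of B4galnt2 (Gm11534) and 14.1% of those of St3gal4 (4930581F22Rik, with mean levels of 1.86 FPKM in adjacent samples and 0.85 FPKM in tumours).

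The RefSeq promoter table (GRCm38.p6), which gives 250 bases before and 50 after each start, held 6 of the 10 genes in 8 windows. Shown are stretches before the start of St3gal4, B4galnt2 and Gcnt1, to set a GC-rich start beside one with a TATA box. These are the genes that fell whose upstream stretch, as printed, lies in no protein-coding exon. The printed stretches of St3gal4 and B4galnt2 stop short of the RefSeq start, and positions given below are counted from that start, not from the last printed base. The St3gal4 stretch lies inside the gene as GENCODE draws it, before the RefSeq start. Each is on the minus strand and reads 5′ to 3′ towards the gene, at chr9:35116874-35117114 for St3gal4, chr11:95914892-95915121 for B4galnt2 and chr19:17372845-17373094 for Gcnt1. Capitals mark the GC box GGGCGG (or its reverse complement CCGCCC) and the TATA box TATAAA (or TTTATA).
St3gal4: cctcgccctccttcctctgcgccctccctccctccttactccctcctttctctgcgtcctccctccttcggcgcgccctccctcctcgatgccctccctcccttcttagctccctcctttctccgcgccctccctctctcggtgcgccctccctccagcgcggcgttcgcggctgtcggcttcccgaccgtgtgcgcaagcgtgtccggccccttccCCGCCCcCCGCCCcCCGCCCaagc
B4galnt2: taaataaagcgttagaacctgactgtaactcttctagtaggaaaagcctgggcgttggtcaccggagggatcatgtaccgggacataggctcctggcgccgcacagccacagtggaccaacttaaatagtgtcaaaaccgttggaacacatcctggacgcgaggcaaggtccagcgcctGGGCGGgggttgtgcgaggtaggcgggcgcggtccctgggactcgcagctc
Gcnt1: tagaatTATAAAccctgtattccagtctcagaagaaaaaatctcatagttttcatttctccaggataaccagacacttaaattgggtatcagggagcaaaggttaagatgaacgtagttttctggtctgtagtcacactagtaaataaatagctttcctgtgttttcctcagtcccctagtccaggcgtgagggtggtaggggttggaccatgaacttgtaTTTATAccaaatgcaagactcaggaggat

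The stretch of St3gal4, 241 bases with a GC content of 72.2%, carried 3 GC boxes side by side between bases -33 and -14 from the start. That of B4galnt2, 230 bases with a GC content of 58.3%, carried 1 GC box at -71 to -66. That of Gcnt1, 250 bases with a GC content of 40.4%, carried no GC box and a TATA box match at -29 to -24, with a further one at -244 to -239. The windows at the other listed starts of Gcnt1, with GC contents of 58.7% and 52.0%, held neither motif. Which start was in use was not tested. The median GC content over all windows in the RefSeq table was 53.0%. Both motifs were chosen after reading the sequences. On either strand, 35.9% of the 32544 promoter windows held the GC box and 13.6% the TATA box, so the matches are common and are a description only.

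Of 7 further motifs searched on both strands, TTTATNG (CDX factors, 10.8% of all windows), CAAAGTC (HNF4 factors, 4.47%), CTTTGAT (TCF factors, 3.73%) and TGANTCA (AP-1, 7.79%) were in none of the 8 windows. The E-box CAGCTG (16.4% of all windows) was in the window of C1galt1, CCNCACC (KLF factors, 30.1%) in another window of Gcnt1, and ACGTGG (XBP1, 8.37%) in that of B3gnt7. The windows of B3gnt7, Galnt3 and C1galt1 also held the GC box. No window was listed for C1galt1c1, B3gnt6, Gcnt3 or Fut2.

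The order of the levels changed between the groups. In adjacent samples it ran from B3gnt7, St3gal4 and B4galnt2 through Fut2, C1galt1, Gcnt3, C1galt1c1, Galnt3 and Gcnt1 to B3gnt6. Only C1galt1 against Gcnt3 and C1galt1c1 against Galnt3 had ranges of FPKM that did not overlap between neighbours. In tumours it ran from B4galnt2, Fut2 and C1galt1 through Galnt3, B3gnt7, C1galt1c1, St3gal4, Gcnt3 and Gcnt1 to B3gnt6, and every pair of neighbours overlapped. B3gnt7 and St3gal4, the highest 2 genes in adjacent samples, ranked 5 and 7 in tumours.

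Tumour 2 was near the adjacent mean for several of the enzymes and far below it for others. It had 100.4% of the adjacent mean of B3gnt6, 91.6% of that of C1galt1c1, 87.6% of that of C1galt1 and 86.1% of that of Fut2. It also had 76.1% for Gcnt3 and 71.9% for B4galnt2. In the same library St3gal4 stood at 20.0%, Gcnt1 at 33.6% and B3gnt7 at 5.63%. Tumour 4 was highest for B3gnt7, at 34.2%, beside 21.4% for B4galnt2, 22.5% for Gcnt3 and 5.43% for B3gnt6. In tumour 1, B4galnt2 (5.96%) and St3gal4 (5.03%) were both near the bottom.

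**Figure D2:**
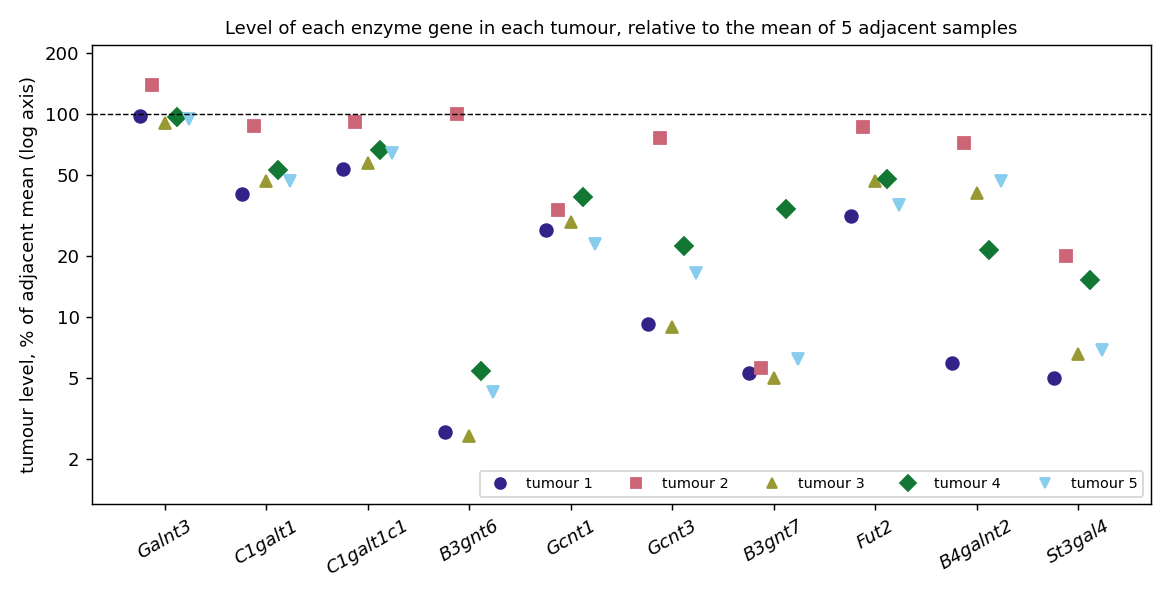
Level of each enzyme gene in each tumour as a percent of the mean of the 5 adjacent samples (log axis, dashed line at 100%). Tumour 2 is the highest tumour except for Gcnt1 and B3gnt7, at 86.1% for Fut2 and 100.4% for B3gnt6, but at 5.63% for B3gnt7, where tumour 4 is the highest at 34.2%.

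Markers of several cell types also differed between the groups and among the tumours, though not in step with every enzyme gene. All 17 goblet cell markers and all 11 tested markers of absorptive colonocytes fell (median log2 changes of -2.28 and -3.73), against 19.3% of all tested genes. The mean log2 level of the goblet list was 7.65 to 8.06 in adjacent samples and 4.81, 6.29, 4.72, 6.14 and 5.12 in tumours 1 to 5, highest in tumours 2 and 4. The colonocyte list ran from 7.53 to 8.37 in adjacent samples and was 2.89, 5.16, 2.76, 4.83 and 2.87 in tumours 1 to 5. Both lists are thus highest in the same 2 tumours in which some of the enzymes were high, and their part in the result was not tested. General epithelial markers moved less: 11 of 12 fell and Krt18 rose, with a median of -0.78 and a summed level of 11075 to 13155 FPKM in adjacent samples and 5166 to 8504 FPKM in tumours.

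Many markers of other cells were higher in tumours, where 57.2% of all tested genes were higher. Of the tested markers, 8 of 9 rose for fibroblasts and 7 of 7 for endothelium. For smooth muscle 4 of 7 rose, and for leukocytes 7 of 11 rose and 1 fell, both near the share over all genes. The fibroblast marker Fap (1.06 to 0.51 FPKM) and the leukocyte marker Ms4a1 (1.66 to 0.24 FPKM), too low to be tested, had lower means in tumours. The summed fibroblast level was 88.3 to 215 FPKM in adjacent samples and 613 to 1034 FPKM in tumours, and the leukocyte sum was 495 to 676 and 997 to 2040 FPKM. No defining marker of these lists stood at 0 in every library.

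The change of the enzymes was also measured against epithelial transcripts. The mean log2 level of the 12 epithelial markers was 9.29 to 9.53 in adjacent samples and 8.32 to 8.97 in tumours. With that mean subtracted from every gene in each library, a setting that moved the median of all tested genes to 1.18, 4 of the 9 genes still fell, against 5.18% of tested genes, and 84.3% were higher. These were St3gal4 (-2.48; limma adjusted p = 1.62e-07), B3gnt7 (-2.72; adjusted p = 0.000321), Gcnt3 (-1.40; adjusted p = 0.00423) and Gcnt1 (-0.68; adjusted p = 0.00772). B3gnt6 (-1.21; limma adjusted p = 0.1001), B4galnt2 (-0.95; adjusted p = 0.143), Fut2 (-0.22; adjusted p = 0.314) and C1galt1 (-0.08; adjusted p = 0.643) no longer passed. C1galt1c1 turned to 0.24 (limma adjusted p = 0.154), and Galnt3 was higher by 0.86 (adjusted p = 6.17e-05).

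The outcome depended on the epithelial measure. With the level of Epcam alone subtracted, an epithelial adhesion gene that fell by 0.31 on the log2 scale, 8 of the 10 genes were lower, against 10.9% of tested genes, and Galnt3 was higher (0.35; limma adjusted p = 0.0219), against 71.0% of tested genes. C1galt1c1 was the exception, at -0.27 (limma adjusted p = 0.0894). St3gal4, at -2.99, and B3gnt7, at -3.23, again had the lowest values. The epithelial list holds Lgals4, a gene of mature colonocytes that fell by 1.90.

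**Figure D3:**
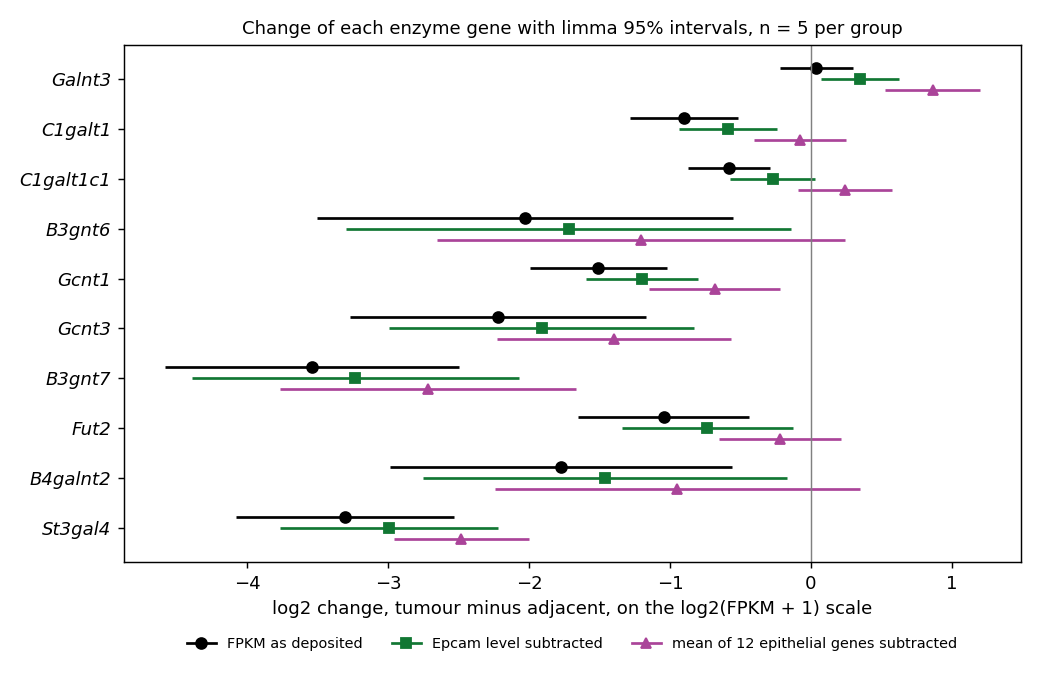
Log2 change (tumour minus adjacent, on the log2(FPKM + 1) scale) of each enzyme gene from FPKM as deposited, with the Epcam level subtracted and with the mean of 12 epithelial markers subtracted, as points with limma 95% intervals (n = 5 per group). St3gal4 and B3gnt7 are lowest on all 3 scales, while C1galt1c1 ranges from -0.58 as deposited to 0.24 with the epithelial mean subtracted and Galnt3 from 0.04 to 0.86.

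A log2 ratio between genes of the same library cancels any factor by which that library was scaled, apart from the pseudocount. Of 8 such ratios, chosen with earlier results of these data known, 5 differed between the groups. The test was a two-sided exact permutation test over 252 regroupings (smallest possible p = 0.00794), adjusted over the 8 ratios. Among the capping enzymes, Fut2 over St3gal4 moved from a mean log2 ratio of -0.71 to 1.55, a difference of 2.26 (SE 0.24; exact permutation p = 0.00794, adjusted p = 0.0212). Every tumour was above every adjacent sample, so fucosyltransferase transcript was below sialyltransferase transcript in all 5 adjacent samples and above it in all 5 tumours. B4galnt2 over St3gal4 moved from -0.02 to 1.51 (difference 1.53, SE 0.52; exact permutation p = 0.0159, adjusted p = 0.0254), with tumour 1 inside the adjacent range. That call was lost when any 1 adjacent sample was left out (adjusted p of 0.0635 to 0.102), and with tumours 2 and 4 left out together (0.0571). The differences were then 1.49 to 1.64 and 1.80, tested with fewer regroupings.

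At the first step, Galnt3 over Galnt2, 2 GALNT genes of which the second rose, moved from 1.18 to -0.04, a difference of -1.21 (SE 0.13; exact permutation p = 0.00794, adjusted p = 0.0212). The groups did not overlap. At the core step, the synthase C1galt1 over its chaperone C1galt1c1 moved from 0.78 to 0.46, a difference of -0.32 (SE 0.09; exact permutation p = 0.0159, adjusted p = 0.0254), and the groups overlapped. This call held without adjacent sample 1 or without tumour 2, and was lost without any other single library (adjusted p of 0.0508 to 0.0635). Leaving out 1 library gave differences of -0.38 to -0.28.

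B3gnt6 over C1galt1, the core 3 against the core 1 synthase, moved from -3.02 to -4.15 and did not pass (difference -1.13, SE 0.61; exact permutation p = 0.103, adjusted p = 0.138). Tumour 2 had a log2 ratio of -2.55 and the other tumours had -4.67 to -4.45. The ratio passed without tumour 2 (-1.53; adjusted p = 0.0317) and with a pseudocount of 0.1 (-2.24; adjusted p = 0.0423), and shrank to -0.149 with a pseudocount of 5 (adjusted p = 0.611), B3gnt6 being below the pseudocount of 1 in 4 tumours. Gcnt3 over Gcnt1, the branching enzymes, did not pass either (1.29 to 0.58, a difference of -0.71, SE 0.56; exact permutation p = 0.238, adjusted p = 0.238).

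Set against the substrate, C1galt1 fell less than Muc2, the secreted gel-forming mucin of goblet cells. The log2 ratio C1galt1 over Muc2 moved from -4.32 to -2.36, a difference of 1.97 (SE 0.40; exact permutation p = 0.00794, adjusted p = 0.0212), without overlap. B3gnt6 over Muc2 did not pass (0.84, SE 0.51; exact permutation p = 0.135, adjusted p = 0.154), its sign turned to -0.28 with a pseudocount of 0.1, and it passed with a pseudocount of 5 (1.86; exact permutation test, adjusted p = 0.0159).

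**Figure D4:**
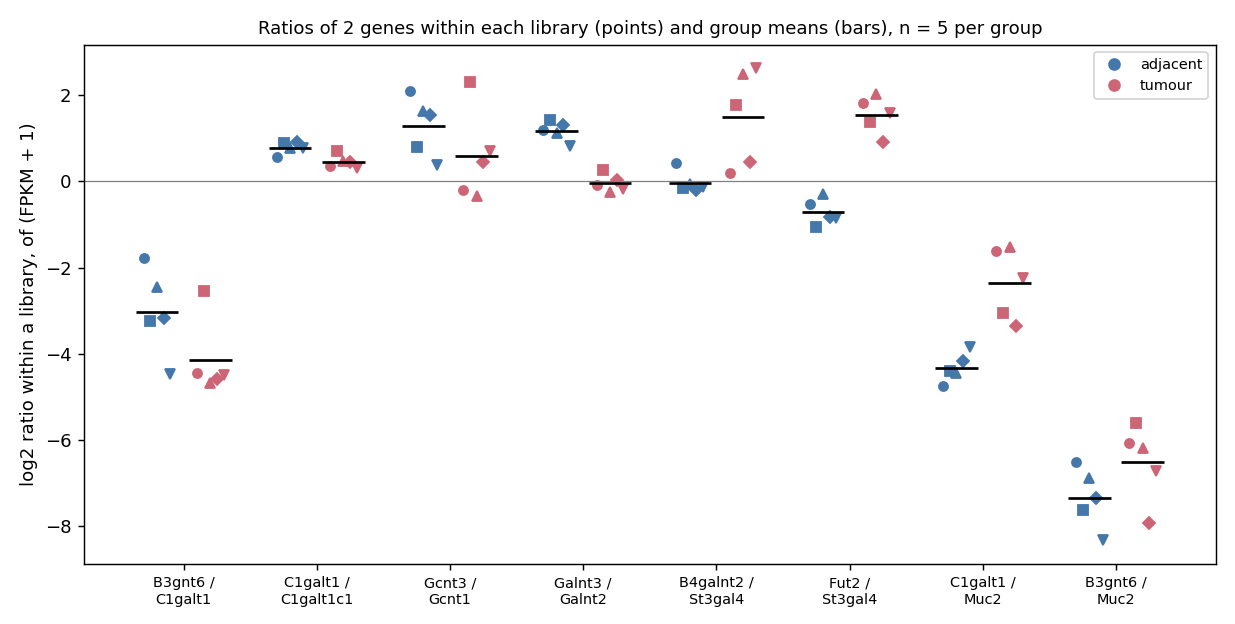
The 8 log2 ratios between genes of the same library, with each library as a point (adjacent blue, tumour red) and the group means as bars. Fut2 over St3gal4, Galnt3 over Galnt2 and C1galt1 over Muc2 separate the groups without overlap, while in B3gnt6 over C1galt1 tumour 2, at -2.55, lies apart from the other tumours.

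Other glycosylation genes, listed by step and not all specific to mucins, moved both ways. Over all tested genes 57.2% were higher and 19.3% lower. The shares were 34.5% and 33.3% with medians subtracted, and 84.3% and 5.18% with the epithelial mean subtracted. Of the other GALNT genes, 10 of 18 in the table were tested, and 4 rose and 6 fell (3 and 6 with medians subtracted, 4 and 5 with the epithelial mean subtracted). Galnt2 rose from 12.5 ± 2.34 to 30.7 ± 2.18 FPKM (SD, n = 5 each; log2 change 1.25, limma adjusted p = 1.9e-05) and Galnt18 from 1.08 ± 0.322 to 5.61 ± 2.25 FPKM (1.62; adjusted p = 6.76e-05). Galnt5 fell from 11.3 ± 1.13 to 2.68 ± 1.48 FPKM (-1.82; limma adjusted p = 6.72e-05), and Galnt7, whose enzyme acts on partly glycosylated peptides, from 65.1 ± 4.77 to 22.3 ± 9.60 FPKM (-1.59; adjusted p = 0.000105). The initiating family held genes that moved both ways, and Galnt3 was the only tested one of its members that did not pass.

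Among 15 tested other genes listed for core building and extension, 5 rose, 5 fell and 5 did not pass. The split depended on the scaling, with 3 higher and 8 lower with medians subtracted, and 10 higher and 3 lower with the epithelial mean subtracted (median log2 change 0.68). The largest fall was that of B3galt5, which builds type 1 chains, from 255 ± 52.7 to 48.3 ± 36.5 FPKM (log2 change -2.64; limma adjusted p = 0.000236). The galactosyltransferase gene B4galt4 fell by 1.56 on the log2 scale (limma adjusted p = 0.00132), and its relative B4galt2 rose from 0.762 ± 0.241 to 3.54 ± 0.289 FPKM (1.37; adjusted p = 1.4e-05). B3galt2 rose from 2.40 ± 0.880 to 6.45 ± 3.95 FPKM (1.02; limma adjusted p = 0.0121), a call lost with medians subtracted (0.065).

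Sialyltransferase genes other than St3gal4 were divided, with 4 of 9 tested higher and 5 lower (4 and 2 with the epithelial mean subtracted). St6galnac6 fell from 436 ± 13.7 to 97.1 ± 74.0 FPKM (SD, n = 5 each; log2 change -2.49, limma adjusted p = 0.000445), and St6gal1, which makes the alpha-2,6 linkage on galactose, fell by 1.75 (adjusted p = 4.58e-05). St3gal2 (1.11; limma adjusted p = 5.11e-05) and St3gal1 (0.95; adjusted p = 0.00101), both known for sialylating core 1, rose from lower levels. Of the other fucosylation and capping genes, 3 of 9 rose, 3 fell and 3 did not pass (4 higher and 3 lower with the epithelial mean subtracted). B4galnt4 rose from 3.24 ± 1.12 to 16.5 ± 5.55 FPKM (2.02; limma adjusted p = 6.11e-05) while its relative B4galnt3 fell by 1.67 (adjusted p = 0.000637), and the fucosyltransferase gene Fut4 fell by 1.59 (adjusted p = 4.08e-05). Ggta1, which makes the alpha-galactose epitope, rose (1.11; limma adjusted p = 0.000337).

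Most genes of donor supply and sulfation fell on the scale as deposited. With the epithelial mean subtracted, 9 were higher and 6 lower for donor supply (median log2 change 0.17). For sulfation 3 were then higher and 3 lower (median -0.05). Over all tested genes that setting gave 84.3% higher, 5.18% lower and a median of 1.18. Of 21 genes for making and transporting nucleotide sugars, 16 fell, 2 rose and 3 did not pass, with a median log2 change of -0.65. Gfpt1, the rate-limiting enzyme of the route to UDP-N-acetylglucosamine, fell from 212 ± 19.2 to 48.5 ± 18.6 FPKM (-2.18; limma adjusted p = 2.52e-05), and Slc35a1, the Golgi transporter of CMP-sialic acid, fell from 78.6 to 28.4 FPKM (adjusted p = 0.00013). The 2 that rose were Gfpt2 (1.03; limma adjusted p = 0.000539) and Galk1 (0.99; adjusted p = 0.000905). Of 10 tested sulfation genes, 7 fell, 2 rose and 1 did not pass, and the sulfate transporter gene Slc26a2 had the lowest change of them (127 ± 29.9 to 12.0 ± 6.43 FPKM; -3.41; limma adjusted p = 1.99e-05). Among the sulfotransferase genes, Chst4 fell from 40.6 to 10.04 FPKM (limma adjusted p = 0.000851), while Chst2 (0.82; adjusted p = 0.000168) and Chst1 (0.80; adjusted p = 0.000965) rose.

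Of the mucins, 6 of the 9 in the table were tested. Muc2 (1353 ± 330 to 231 ± 179 FPKM; log2 change -2.87, limma adjusted p = 0.000341), Muc13 (1507 ± 354 to 499 ± 236 FPKM; -1.68, adjusted p = 0.000392) and Muc4 (41.4 ± 12.2 to 20.0 ± 27.1 FPKM; -1.70, adjusted p = 0.0264) fell. In Muc4, a membrane mucin, tumour 2, at 68.0 FPKM, was above every adjacent sample and the other tumours were at 3.73 to 14.0 FPKM. Muc6, a gastric gel-forming mucin, rose from 0.426 ± 0.214 to 2.55 ± 1.52 FPKM (1.23; limma adjusted p = 0.00121). Muc1 and Muc20 did not pass.

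**Figure D5:**
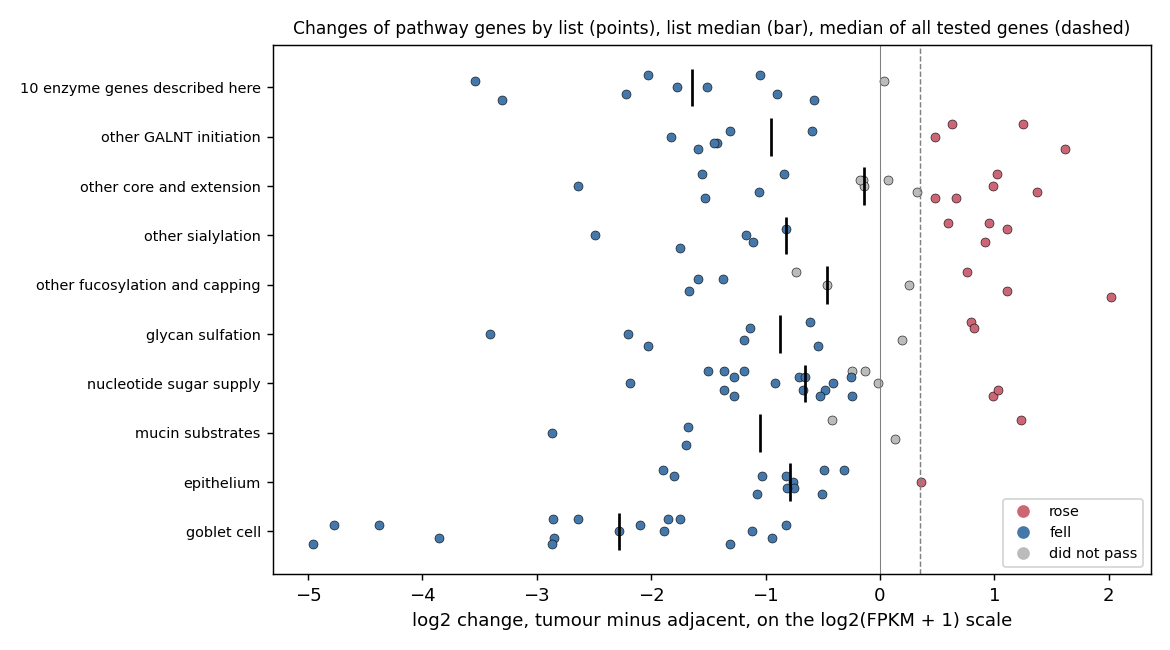
Log2 change (tumour minus adjacent, on the log2(FPKM + 1) scale) of each tested gene by list, coloured by whether it rose, fell or did not pass, with the list median as a bar and the median of all tested genes (0.35) as a dashed line. The 10 enzyme genes have a median of -1.64, the other glycosylation and mucin lists -0.14 to -1.05 and the goblet cell markers -2.28.

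For each enzyme gene, the gene whose deviations from its group means were most like its own was found among 13015 genes by Pearson's r over the 10 libraries, among which tumours 2 and 4 count in every coefficient. The coefficients, each the highest of many, ran from 0.930 to 0.988 and are a description. The nearest gene was Ceacam1 for C1galt1 (0.979), Mia3 for C1galt1c1 (0.977), Gnpnat1 for Fut2 (0.950), Ddah1 for Gcnt3 (0.978) and Abca12 for B3gnt6 (0.977). It was Sycn for B3gnt7 (0.983), 2010109I03Rik for St3gal4 (0.988), S100g for B4galnt2 (0.971), Herpud2 for Gcnt1 (0.930) and Fam198b for Galnt3 (0.976). No gene was nearest to more than 1 of the 10. Since group means were taken out, a nearest gene need not change alike between the groups. The adjacent and tumour means were 7.32 and 25.1 FPKM for S100g and 14.1 and 16.1 FPKM for Herpud2, while B4galnt2 and Gcnt1 fell. The nearest genes of the other genes that fell had lower means in tumours.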

How the data were processed

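Polyadenylated RNA was selected with oligo-dT, made into libraries with the TruSeq RNA v2 kit and sequenced on an Illumina HiSeq, per the labels' protocols. The authors deposited 1 table of FPKM for 24525 genes and 10 libraries. One line held text and was left out. The submitters' processing notes give the build mm10 and list, without their roles, GATK, DESeq2 1.14.1, Salmon 0.8.2, RSEM 1.2.15, edgeR 3.16.5, Cufflinks 2.2.1 and TopHat2 2.1.0. FPKM divides by the library total, so each value depends on the other genes.

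Depth is not in the table. From the steps between low values it was estimated at 21600000 to 27100000 fragments per library, with 77.4% to 83.4% of those values within 0.2 of a whole number of fragments. FPKM totals were 462009 to 484712, and at least 17741 genes differed between any pair of libraries.

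The 13016 genes averaging 1 FPKM or more were tested on log2(FPKM + 1) with limma 3.58.1 (R 4.3.3, trend and robust), with Benjamini-Hochberg adjustment over all of them, all 10 libraries and no block. The same steps were also run on simulated data with independent noise for each gene and few changed genes. In the real data 76.5% of tested genes passed, so that run did not test this setting. A design for a table of counts had been written as well and was not used, since the table holds FPKM. Ratios are differences of log2(FPKM + 1), tested by exact permutation. Listed genes outside the 10 were named as those with the highest and lowest log2 changes past the test in each list. The genes of the ratios and the nearest gene of each enzyme gene were named as well. The mucins Muc13, Muc1 and Muc20 were added after their values were seen. The 10 genes, the lists and the tests were chosen with earlier results of these data known. Galnt17, Galntl4 and Gfus were read under the symbols Wbscr17, Galnt18 and Tsta3. Of the listed genes, Muc3, Muc3a, Muc12, Muc16 and Muc17 were not analysed here, nor were the protein data. Alternatives were other pseudocounts, filters and scalings, the replicate block and leaving out libraries. Subtracting Epcam, leaving out tumours 2 and 4 together and the epithelial mean over all genes were chosen after seeing the data.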

Additional observations from a re-analysis of the deposited data

Results flagged for a closer look

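In 4 genes and 2 ratios, 1 library of a group of 5 stood far from the other 4. Among the tumours, tumour 2 stood above the rest for Galnt3, at 40.5 FPKM, for B3gnt6, at 8.87 FPKM, and for the log2 ratio of B3gnt6 over C1galt1, at -2.55. Tumour 4 stood above the other tumours for B3gnt7, at 82.5 FPKM. Among the adjacent samples, sample 5 was low for B4galnt2, at 115 FPKM, and sample 1 was high for the log2 ratio of B4galnt2 over St3gal4, at 0.42. These are 6 of 36 groups checked, and chance flags about 1 in 20 groups. The 36 groups share libraries and genes, so the flags are not independent.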

How the results depend on the processing

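The 9 enzyme genes that passed did so in each of the 10 fits that left out 1 library, without tumours 2 and 4 together, at pseudocounts of 0.1 and 5, without the filter and with medians subtracted or quantile normalization. With the epithelial mean subtracted 5 of the 10 passed, 4 lower and 1 higher, and with Epcam subtracted 8 were lower and 1 higher. Over all tested genes, medians subtracted gave 4486 higher and 4329 lower, and quantile normalization 4759 and 3934 (54.7% of calls higher). The epithelial mean gave 10968 higher and 674 lower, and Epcam 9239 higher and 1416 lower. Signs turned for Galnt3 (-0.29 with medians subtracted, -0.12 with quantile normalization, -0.0676 to 0.0817 leaving out 1 library, the lowest without tumour 2, and -0.0745 without tumours 2 and 4), for C1galt1c1 (0.24 with the epithelial mean subtracted) and for B3gnt6 over Muc2 (-0.28 at a pseudocount of 0.1). The cause was not tested. Leaving out 1 library gave 3 to 6 passing ratios. Same-numbered libraries deviated with correlations of 0.023, 0.321, 0.022, 0.161 and 0.422, so the numbers are not shown to pair them. With the replicate block the same number of enzyme genes passed, 9, with 10067 genes in all against 9951, and 0 of the 8 ratios, since 5 pairs cannot give an exact p below 0.0625. The depth limits B3gnt6 most, with 4 tumours under 0.5 FPKM.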
